A study of Homo sapiens with 10 samples.

Results

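The 48 human genes that encode the proteasome and its dedicated regulators and assembly factors were examined in MEG-01 cells given the microRNA miR-1225-3p. They were chosen by name: each array probe outside the control spots whose RefSeq symbol joins PSMA, PSMB, PSMC, PSMD, PSME, PSMF or PSMG to a number, with pseudogenes left out. The rule used no measured value. It took 48 of 35267 names on the array, and 46 of the 17379 genes tested. The names PSMA3-AS1, PSMC3IP, PSME3IP1 and PSMG3-AS1 start alike but belong to other genes, and these 4 were left out.

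MEG-01 is an established human megakaryoblastic leukemia line, so all samples came from 1 line. The cells were nucleofected with 200 nM of a precursor of miR-1225-3p or, as the control, with 200 nM of a scrambled precursor, and RNA was taken after 24 hours. Each group held 5 samples that the labels call biological replicates, and each sample was hybridized to 1 single-colour Agilent array. One label field of the scrambled samples reads no treatment, whereas their titles and the methods describe nucleofection, so the control here is a transfected one. RNA came from the whole culture, so cells that did not take up the precursor were measured too. A lower signal from fewer cells and one from less RNA per cell cannot be told apart.

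The share of spots well above background was 42.0% to 53.8% in the miR-1225-3p group (median 47.1%) and 43.1% to 61.2% in the scrambled group (median 54.6%). On the first principal component of all genes, which held 69.6% of the variance, miR-1225-3p replicates 1 to 4 scored between -133.4 and -53.0, the scrambled arrays between 48.7 and 79.9, and miR-1225-3p replicate 5 at 56.7, among the scrambled arrays. Of 11 markers of the megakaryocyte lineage, 8 were well above background on all 10 arrays, as were 1 of 3 T lymphocyte, 1 of 2 monocyte, 0 of 3 fibroblast and 2 of 3 epithelial markers. Some markers moved with the treatment. Of 10 megakaryocyte markers tested, ITGA2B (log2 fold change -1.39), GATA2 (-0.999), FLI1 (-0.60) and NFE2 (-0.43) fell and RUNX1 (0.46) rose, and on the 75th percentile FLI1 and GATA2 were still lower. Their mean log2 signal ran from 7.91 to 8.76 on the miR-1225-3p arrays, with replicate 5 the highest, and from 8.80 to 8.92 on the scrambled arrays. Of 8 tested markers of other cell types, CD3E (1.96), FCGR3A (1.35) and EPCAM (0.90) rose and 0 fell, and 3 were higher and 0 lower on the 75th percentile. PF4, CD2, MS4A1, COL1A2 and DCN were well above background on no array. The part of these markers in the proteasome values was not tested. Precision is limited by there being 5 arrays a group.

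The proteasome degrades proteins that carry ubiquitin chains. Its core is a barrel of stacked rings: alpha subunits form the outer rings and the gate, and beta subunits form the inner rings, where PSMB5, PSMB6 and PSMB7 cut the substrate. A cap binds the ubiquitin chain, removes it, unfolds the substrate with a ring of ATPases and feeds it into the barrel. Interferon induces PSMB8, PSMB9 and PSMB10, which replace PSMB5, PSMB6 and PSMB7 in newly built immunoproteasomes, and the activator formed by PSME1 and PSME2. In megakaryocytes, proteasome function is needed for the formation of platelets.

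The sequence of the transfected microRNA is shown because its seed is what pairs with target transcripts, and capitals mark the seed, bases 2 to 8.
hsa-miR-1225-3p: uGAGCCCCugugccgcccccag
In RefSeq (GRCh38.p14) its 22 bases lie at chr16:2090195-2090216 on the minus strand. Seed matches in the transcripts of the proteasome genes were not examined here, since no transcript sequence was used.

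RefSeq promoter windows, from 250 bases before to 50 bases after a gene's start, were at hand for 42 of the 48 genes. Windows were searched on both strands for 3 motifs. TGACNNNGC is the core of the antioxidant response element, bound by the factors NFE2L1 and NFE2L2 that drive proteasome genes. It begins like some AP-1 sites and so can overlap them. GAAA in 2 copies set 2 bases apart is the core of the interferon-stimulated response element. CCAAT is the box bound by the NF-Y factor. TGACNNNGC stood in the windows of 15 of 42 proteasome genes (35.7%) and of 16.1% of the 27305 symbols with a window, where it was found in 13.3% of all 35116 windows. The double GAAA stood in 7 of 42 (16.7%), in 4.38% of all symbols and in 3.57% of all windows. CCAAT stood in 20 of 42 (47.6%), in 39.7% of all symbols and in 34.6% of all windows. A match is a description of letters, and absence says only that these letters were not in this window.

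The double GAAA matches of the interferon-inducible members are shown with 8 bases on each side, the match in capitals, 5′ to 3′ on the strand that reads GAAA, because these genes later differ in how they changed.
PSMB8: gaggaagtGAAAGCGAAAgccacaga
PSMB10: gtaaaggcGAAAGCGAAAgcaggaag
PSME1: cgcgaaggGAAAGCGAAAgcggtagg
PSME2: tggggagtGAAAGCGAAAgcccgggc
They lie at chr6:32844034-32844059 (plus strand), chr16:67936854-67936879 (minus), chr14:24136191-24136216 (minus) and chr14:24146621-24146646 (minus) of GRCh38.p14. The letters GAAAGCGAAA were the same in all 4. The PSMB9 window held no such match. The remaining double GAAA matches were in the windows of PSMA4, PSMB4 and PSMG4. By call, the double GAAA stood in 1 of 9 genes that rose, 2 of 9 that fell and 4 of 22 tested genes that were neither. Matches of TGACNNNGC are shown in the same way for PSMG1, which rose, and for PSME1 and PSMC4, which fell.
PSMG1: ccagggcaTGACAGCGCgggcgggc
PSME1: ggcagggcTGACCCCGCctcctcca
PSMC4: ctccatagTGACCAAGCcggcctct
They lie at chr21:39183618-39183642 (minus strand), chr14:24136100-24136124 (plus) and chr19:39971184-39971208 (minus). Among genes with a window, TGACNNNGC was found in 3 of 9 that rose, 5 of 9 that fell and 7 of 22 tested genes that were neither. PSMA8 and PSMB11, which were not tested, had windows without it.

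In the miR-1225-3p samples 11 proteasome genes rose and 9 fell, with rises and falls among the subunits of one complex. The largest rises were in PSMC6, an ATPase of the cap base (1.64-fold), and PSMG1, a chaperone that assembles the core (1.62-fold). The largest falls were in PSME1, the alpha subunit of the interferon-inducible activator (2.90-fold), and PSMC4, another ATPase of the same ring as PSMC6 (2.49-fold). Median log2 fold change was -0.03 over the 46 genes tested and -0.06 over all 17379 genes. The other genes that rose were PSMA1, PSMA2, PSMB7, PSMD1, PSMD4, PSMD6, PSMD14, PSMG2 and PSMG4, and the others that fell were PSMB5, PSMB8, PSMB9, PSMD3, PSMD5, PSMD8 and PSMF1.

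These calls are from limma with Benjamini-Hochberg adjustment over all genes tested, at an adjusted p under 0.05. By that rule 35% of all genes were called, 17% higher and 18.1% lower, against 20 of 46 proteasome genes, 11 higher and 9 lower. The groups did not overlap for 12.7% of all genes, 7.98% with miR-1225-3p higher and 4.74% with it lower. For proteasome genes this was so in 9 of 46. PSMA1, PSMD1, PSMD4, PSMD6, PSMG1, PSMG2 and PSMG4 were higher in this way, and PSMB5 and PSMB8 lower.

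None of these calls held in all 26 alternative analyses. PSME1 and PSMC6 were called in the same direction in 23 of them, PSMG1 and PSMG2 in 22 and PSMG4 in 21. Of the other genes that rose, PSMB7 and PSMD1 were called in 19, PSMD4 in 18, PSMD6 in 17, PSMD14 in 13, PSMA2 in 10 and PSMA1 in 9. Of the other genes that fell, PSMB8 was called in 14, PSMD3 in 11, PSMB9, PSMC4, PSMD5, PSMD8 and PSMF1 in 10 and PSMB5 in 9.

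The split into rises and falls depended on the scaling, the test and the filter. Scaling each array on its 75th percentile moved the median of all genes from -0.06 to 0.16 and the proteasome median to 0.50, and then 21 proteasome genes were higher and 2 lower, with 41.1% of all genes called, 26.3% higher and 14.9% lower. The 2 genes that stayed lower were PSME1 and PSMF1. Quantile normalization gave 14 higher and 4 lower, with 35.4% of all genes called, 20.9% higher and 14.4% lower. With the methods' t-test, after Benjamini-Hochberg adjustment, 12 were higher and 3 lower (26.9% of all genes, 15.2% higher and 11.7% lower). Without the filter on dim probes 7 were higher and 1 lower (9.67% of all genes, 5.36% higher and 4.31% lower). Fold changes below are from cyclic loess, the scaling the methods name, and can be set against the all-gene median. That median is a limited reference, because the proteasome genes were brighter (median log2 signal 11.5) than all genes (7.56). On the 75th percentile, fold change rose with signal over all genes (Spearman's rho 0.27), so the 2 medians are not like for like there.

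**Figure D1:**
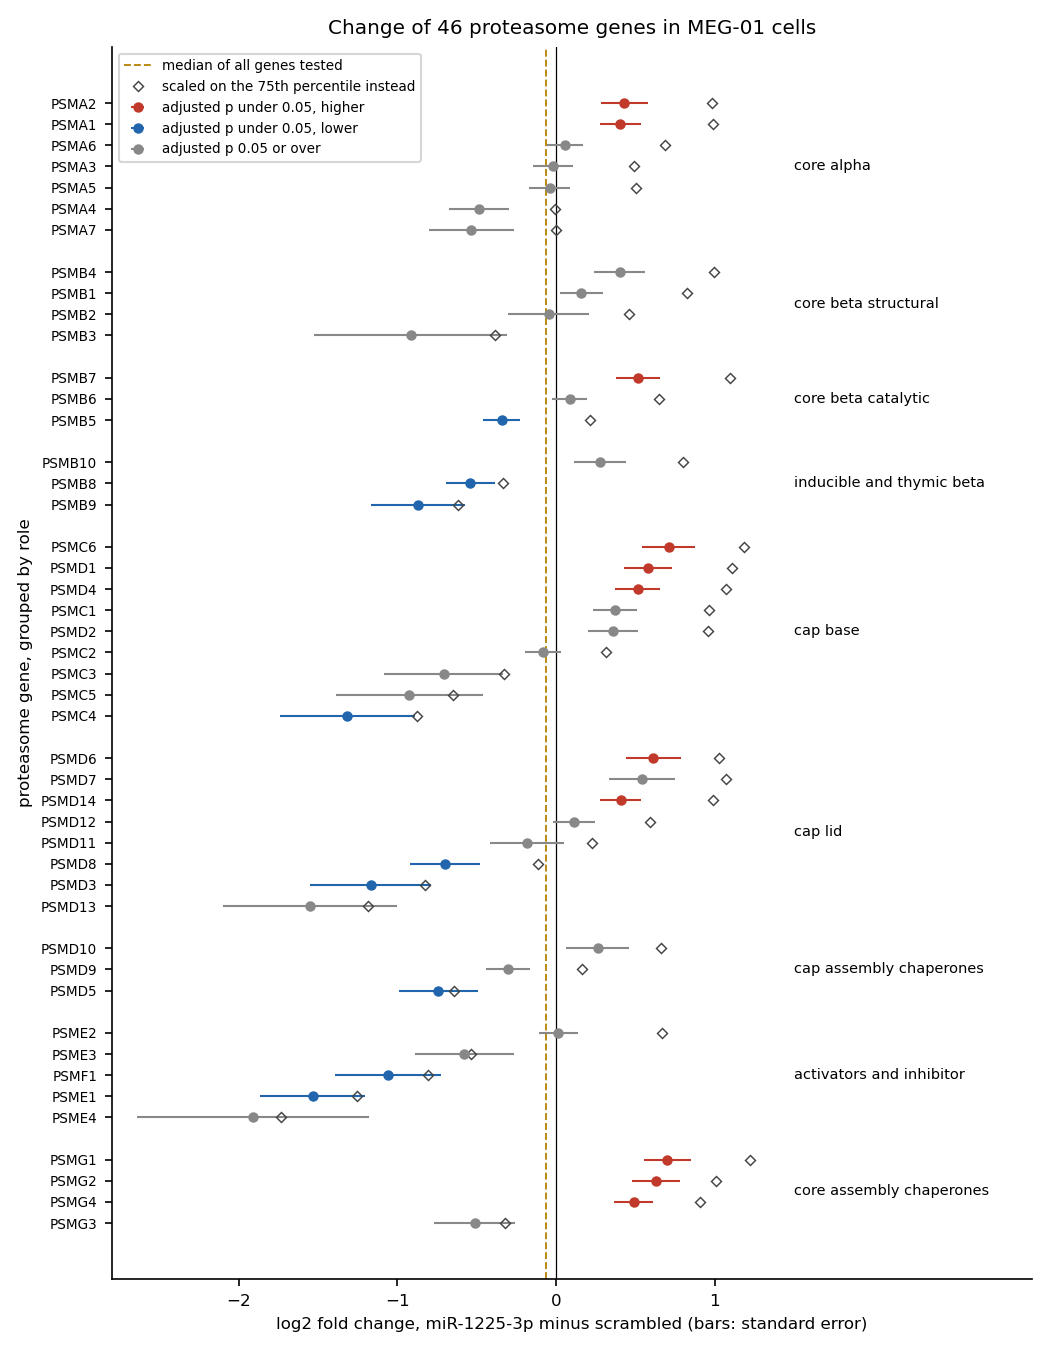
Log2 fold change, miR-1225-3p minus scrambled, of the 46 proteasome genes tested, grouped by role; filled points with bars are the estimate and its standard error after cyclic loess, open diamonds the estimate after scaling on the 75th percentile, and the dashed line the median of all genes (-0.06). Rises reach 0.71 and falls among called genes -1.53, most falls have longer bars than the rises, and diamonds lie to the right of the points.

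The count also moved when single arrays were left out, and so did the share of all genes called. The count was 33 without miR-1225-3p replicate 5 (15 higher and 18 lower, with 55.4% of all genes called, 26.3% higher and 29% lower), and 12, 5, 5 and 10 without miR-1225-3p replicates 1 to 4, with 25%, 12.5%, 13.3% and 20.9% of all genes called. It was 9, 6, 9, 9 and 14 without scrambled replicates 1 to 5, with 19.5%, 19.1%, 22.6%, 20.5% and 29.7% of all genes called. Array weights gave 37 (69.3% of all genes), and no normalization gave 0 (7.28%). Replicate 5 had the highest value of its group for 8 of the 9 genes that fell and the lowest for 9 of the 11 that rose. Genes that fell varied more within the miR-1225-3p group (median SD 0.538 on the log2 scale) than genes that rose (median SD 0.194), while the scrambled SDs were 0.181 and 0.182.

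The median deviation from the scrambled mean of the 9 genes that fell was -0.71, -1.02, -1.25, -1.57 and -0.04 on miR-1225-3p replicates 1 to 5. For the 11 genes that rose it was 0.55, 0.54, 0.61, 0.59 and 0.21. By these medians replicate 5 lay at the scrambled level for the genes that fell and slightly above it for the genes that rose. The genes were called with replicate 5 included, so this is a description. For PSMA2, PSMB7, PSMC6 and PSMD14, which rose, replicate 5 lay within the scrambled range. On the scrambled arrays these medians ran between -0.09 and 0.09 for genes that fell and between -0.16 and 0.14 for genes that rose.

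**Figure D2:**
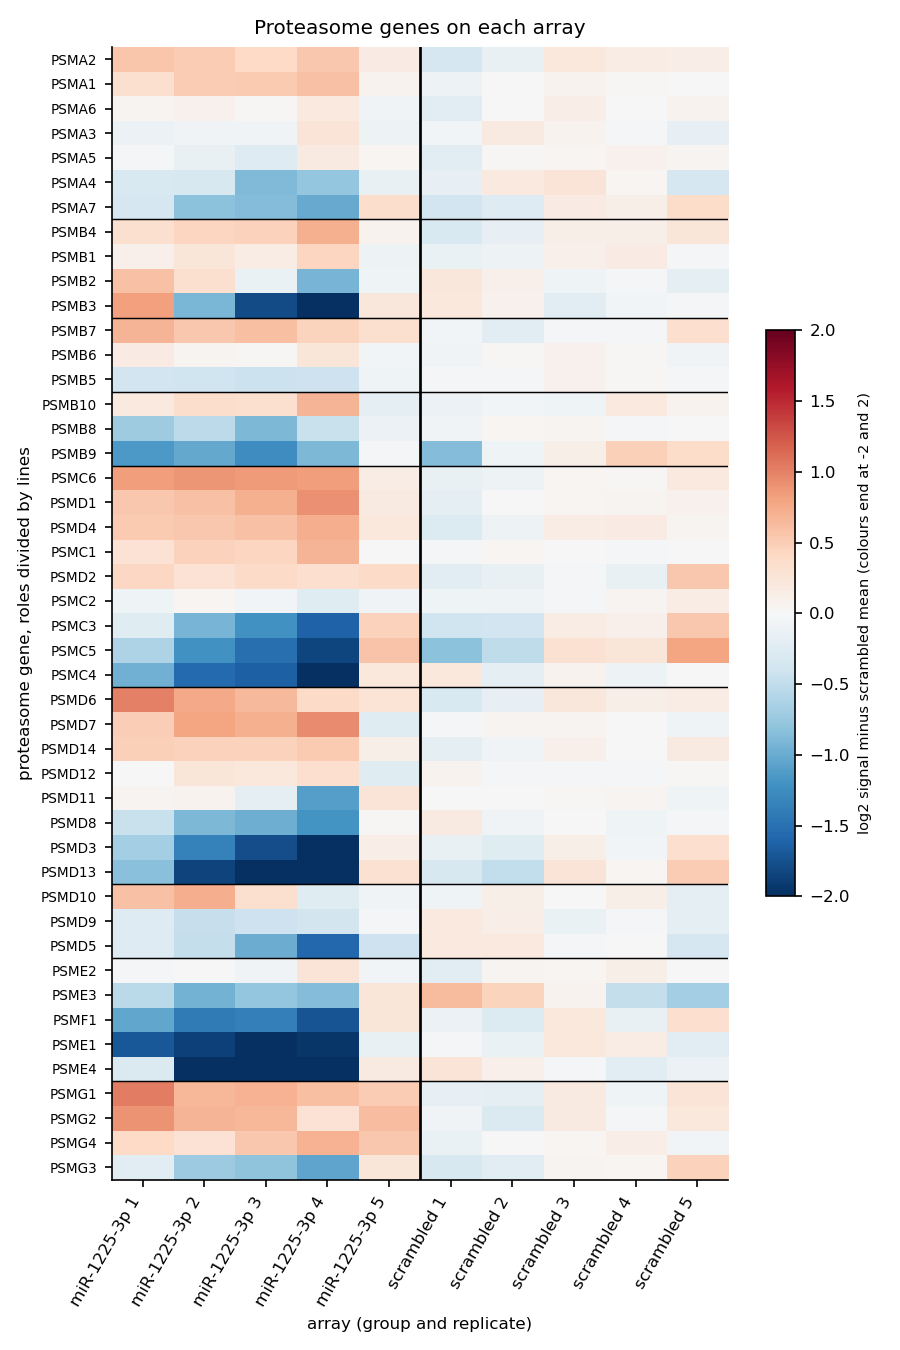
Log2 signal of each of 46 proteasome genes on each of the 10 arrays, as the deviation from the gene's scrambled mean; red is higher, blue lower, horizontal lines divide the roles and the vertical line the groups. Replicates 1 to 4 of miR-1225-3p are all blue in the rows of the genes that fell, where replicate 5 is mostly pale. Some other rows are blue on only part of replicates 1 to 4, such as PSMB3 (0.82 on replicate 1 and -2.94 on replicate 4). Replicate 5 is red in PSMG1, PSMG2 and PSMG4, and also in other rows such as PSMC5 (0.57), PSMC3 (0.47), PSMD2 (0.39) and PSMB7 (0.32).

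The values of several genes were ordered by the share of spots above background, a pattern noticed after the values were seen. On the 4 arrays with 53.8% to 61.2% of spots above background (miR-1225-3p replicate 5 and scrambled replicates 3 to 5), PSMA7, PSMB9, PSMC3, PSMC5, PSMD3, PSMD13 and PSMG3 all had higher values than on the 6 arrays with 42.0% to 52.1%. That is 7 of 46 proteasome genes and 6.18% of all genes. PSMC5, an ATPase of the cap base, read 9.50 to 10.04 on the first set and 7.42 to 8.74 on the second, which includes scrambled replicates 1 (8.44) and 2 (8.74). Of these 7 genes, PSMB9 and PSMD3 were among those called lower. The part of this share in their fold changes was not tested.

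Of the alpha subunits of the core, 2 of 7 tested rose, 0 fell and the median log2 fold change was -0.02. This count and those of the other roles below stand beside 17% of all genes called higher and 18.1% lower. PSMA2 had log2 signals of 12.96, 12.92, 12.81, 12.95 and 12.58 on the miR-1225-3p arrays and 12.08, 12.26, 12.63, 12.56 and 12.54 on the scrambled arrays. The scrambled arrays lay below replicates 1 to 4 and on either side of replicate 5. The log2 fold change was 0.43 ± 0.15 (SE, n = 5 arrays each, limma adjusted p = 0.0460). PSMA1 rose by 0.41 with no overlap of the groups, but its second kept probe, for another transcript, which was well above background on 5 of 10 arrays, fell by 1.70 on the log2 scale (adjusted p = 0.0262 over kept probes, limma). It was the only proteasome gene called by the main probe whose probes passed the threshold in opposite directions. The log2 fold change of PSMA7 was -0.54 (limma adjusted p = 0.133). PSMA8, the alpha subunit of the testis proteasome, was not well above background on any array and was not tested.

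None of the 4 structural beta subunits, PSMB1 to PSMB4, was called, and their median log2 fold change was 0.06. PSMB4 was not called at 0.40 (limma adjusted p = 0.0730). PSMB3 varied most of the 4, with 13.46, 11.73, 10.84, 9.70 and 12.87 on the miR-1225-3p arrays, while the scrambled arrays lay between 12.41 and 12.86. Replicate 1 lay above the scrambled range, replicate 5 just above it and the other 3 below it.

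The 3 peptidase subunits of the constitutive core went different ways: PSMB7 was higher, PSMB5 lower and PSMB6 was not called. PSMB7, which cuts after basic residues, read 13.58, 13.44, 13.50, 13.35 and 13.21 on the miR-1225-3p arrays and 12.85, 12.68, 12.86, 12.86 and 13.24 on the scrambled arrays. Only scrambled replicate 5 reached into the miR-1225-3p range, just above replicate 5 of that group. That gave a log2 fold change of 0.52 ± 0.14 (SE, n = 5 each, limma adjusted p = 0.0227).

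PSMB5, which cuts after hydrophobic residues, read 12.53, 12.51, 12.48, 12.50 and 12.83 on the miR-1225-3p arrays and 12.87, 12.89, 13.01, 12.93 and 12.88 on the scrambled arrays. Replicates 1 to 4 lay close together and replicate 5 stood just under the lowest scrambled array, so the groups did not overlap. In limma the log2 fold change was -0.34 ± 0.12 (SE, n = 5 each, limma adjusted p = 0.0428), and 0.21 after scaling on the 75th percentile (adjusted p = 0.271 from limma), a change of sign. PSMB6, which cuts after acidic residues, read 12.74 to 13.03 against 12.71 to 12.88, and its log2 fold change was 0.09 ± 0.11 (adjusted p = 0.551 from limma).

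Of the inducible subunits, PSMB8 and PSMB9 were lower and PSMB10 was not called. PSMB8 read 7.77, 7.96, 7.57, 8.03 and 8.35 on the miR-1225-3p arrays and 8.40, 8.52, 8.53, 8.45 and 8.48 on the scrambled arrays. All scrambled arrays lay above all miR-1225-3p arrays, by a small gap for replicate 5. Its change on the log2 scale was -0.54 ± 0.15 (SE, n = 5 each, limma adjusted p = 0.0261).

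PSMB9 read 7.89, 8.02, 7.79, 8.14 and 8.99 on the miR-1225-3p arrays and 8.17, 8.95, 9.16, 9.51 and 9.40 on the scrambled arrays. Replicate 5 lay within the scrambled range, and scrambled replicate 1 lay close to miR-1225-3p replicates 1 to 4. Its log2 fold change was -0.87 ± 0.30 (SE, n = 5 each, limma adjusted p = 0.0454). Without replicate 5 it was -1.07.

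PSMB10 read 12.13, 12.29, 12.25, 12.62 and 11.76 on the miR-1225-3p arrays, against 11.81 to 12.13 on the scrambled arrays, so replicate 5 lay below all scrambled arrays and the others at or above their highest. Its log2 fold change was 0.28 ± 0.16 (adjusted p = 0.198 from limma), and 0.80 after scaling on the 75th percentile (adjusted p = 0.0389). PSMB11, the beta subunit of the thymus, was not well above background on any array and was not tested. PSMB9 neighbours TAP1 on chromosome 6, a subunit of the peptide transporter that serves antigen presentation. TAP1 had a log2 fold change of -0.47 (limma adjusted p = 0.0315), with no overlap of the groups, but 0.0056 after scaling on the 75th percentile (adjusted p = 0.985) and -0.39 with quantile normalization (adjusted p = 0.0599). TAP2, its partner beside PSMB8, was higher at 0.69 (limma adjusted p = 0.0396) and at 0.82 on the 75th percentile.

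**Figure D3:**
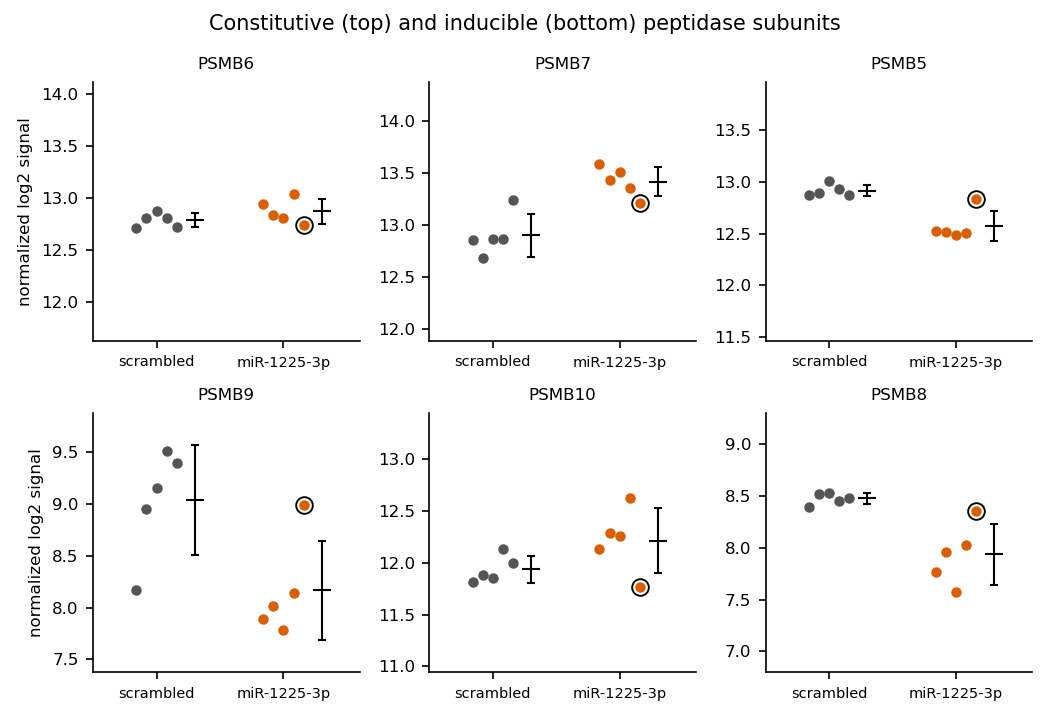
Normalized log2 signal of the constitutive peptidase subunits (top) and the inducible subunits that replace them (bottom) on each array, with the mean and SD beside the points and miR-1225-3p replicate 5 ringed. Replicate 5 is nearest to, or within, the scrambled range for PSMB5, PSMB7, PSMB8 and PSMB9.

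Each inducible subunit was set against the subunit it replaces, as a log2 ratio within each array, which does not depend on a shift of the whole array. Only the difference between groups is read, in 3 pairs, with a two-sided exact permutation test over the 10 arrays and Benjamini-Hochberg adjustment over the pairs. The ratio of PSMB8 to PSMB5 was lower in the miR-1225-3p samples, with a difference of -0.20 on the log2 scale (exact p = 0.0317, adjusted p = 0.0476). Relative to the scrambled mean, the miR-1225-3p arrays read -0.32, -0.12, -0.48, -0.04 and -0.04, and the scrambled arrays between -0.04 and 0.07.

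The ratio of PSMB9 to PSMB6 differed by -0.96 (exact p = 0.0238, adjusted p = 0.0476). Replicates 1 to 4 read -1.31, -1.07, -1.27 and -1.15, replicate 5 read 0.01, and the scrambled arrays read -0.79, -0.11, 0.03, 0.45 and 0.42. The ratio of PSMB10 to PSMB7 differed by -0.24 (exact p = 0.167, adjusted p = 0.167), with overlapping groups. The smallest p this design can give is 0.00794. The first 2 calls were lost with quantile normalization, with the authors' values, with normexp and with a slide block, and when scrambled replicate 1, 2, 3, 4 or 5 or miR-1225-3p replicate 1 or 2 was left out. The second was also lost without miR-1225-3p replicate 3. Both calls held on the 75th percentile, with larger differences of -0.55 and -1.27 (adjusted p = 0.0357, exact test). Both directions were kept under all settings run.

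Of 9 genes of the cap base, which unfolds the substrate, 3 rose, 1 fell and 5 were not called, with a median log2 fold change of 0.36. PSMC6 read 11.64, 11.69, 11.65, 11.63 and 10.94 on the miR-1225-3p arrays and 10.66, 10.69, 10.83, 10.83 and 10.99 on the scrambled arrays. Replicates 1 to 4 lay above all scrambled arrays and replicate 5 just under the highest. That gave a log2 fold change of 0.71 ± 0.17 (SE, n = 5 each, limma adjusted p = 0.0166).

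PSMC4 read 10.22, 9.62, 9.54, 8.55 and 11.38 on the miR-1225-3p arrays and 11.39, 11.00, 11.25, 11.08 and 11.17 on the scrambled arrays. Only replicate 5 reached the scrambled range, near its highest, and the other 4 lay below it. In limma the log2 fold change was -1.32 ± 0.43 (SE, n = 5 each, limma adjusted p = 0.0382). PSMD1, a scaffold of the base, rose by 0.58 and PSMD4, a receptor for ubiquitin chains, by 0.52, both without overlap of the groups. PSMD1 and PSMD2 each had a second kept probe of opposite sign that was not called, at -0.57 (adjusted p = 0.0733 over kept probes, limma) and -0.98 (adjusted p = 0.104).

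In the lid of the cap, which removes the ubiquitin chain, 2 of 8 genes rose, 2 fell and the median log2 fold change was -0.03. PSMD6, a structural subunit, read 10.86, 10.60, 10.50, 10.24 and 10.13 on the miR-1225-3p arrays and 9.54, 9.69, 10.07, 9.96 and 9.99 on the scrambled arrays. All miR-1225-3p arrays were above all scrambled arrays, with a log2 fold change of 0.61 ± 0.17 (SE, n = 5 each, limma adjusted p = 0.0265). PSMD14, the deubiquitinase of the lid, rose by 0.41.

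PSMD3, another structural lid subunit, read 9.27, 8.60, 8.18, 7.81 and 10.09 on the miR-1225-3p arrays and 9.81, 9.72, 10.07, 9.90 and 10.29 on the scrambled arrays. Replicate 5 lay high in the scrambled range and the others below it. Its change on the log2 scale was -1.17 ± 0.38 (SE, n = 5 each, limma adjusted p = 0.0393). PSMD8, also of the lid, was lower at -0.70 (limma adjusted p = 0.0349). PSMD13 missed the threshold narrowly at -1.55 ± 0.55 (limma adjusted p = 0.0500071).

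The chaperones that assemble the cap base, PSMD5, PSMD9 and PSMD10, had a median of -0.30, and PSMD5 was called. PSMD5 read 7.40, 7.17, 6.66, 6.09 and 7.25 on the miR-1225-3p arrays and 7.86, 7.85, 7.61, 7.66 and 7.32 on the scrambled arrays. Only scrambled replicate 5 overlapped with the miR-1225-3p range, lying under replicate 1. Its log2 fold change was -0.74 ± 0.25 (SE, n = 5 each, limma adjusted p = 0.0426).

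The activators and the inhibitor, which dock on the core in place of the cap, had the lowest median of any role at -1.06, with 0 rises and 2 falls among 5 genes. PSME1 read 7.89, 7.72, 7.59, 7.64 and 9.44 on the miR-1225-3p arrays and 9.57, 9.45, 9.81, 9.74 and 9.38 on the scrambled arrays. Replicates 1 to 4 lay far below the scrambled arrays and replicate 5 within their range. That gave a log2 fold change of -1.53 ± 0.33 (SE, n = 5 each, limma adjusted p = 0.0148), and -1.87 without replicate 5.

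PSME2 encodes the subunit that forms a ring with PSME1, and the genes lie close together on chromosome 14. It read 14.57, 14.60, 14.54, 14.87 and 14.56 against 14.40, 14.66, 14.66, 14.73 and 14.62. The ranges overlapped and the log2 fold change was 0.01 ± 0.12 (limma adjusted p = 0.931), although its window held the same GAAAGCGAAA letters as that of PSME1. The difference between the changes of PSME1 and PSME2 was not tested.

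PSMF1, an inhibitor of the core, had a log2 fold change of -1.06 ± 0.34 (limma adjusted p = 0.0357). Its other kept probes read 0.15 (adjusted p = 0.510 over kept probes) and -1.76 (adjusted p = 0.0271). PSME4, an activator found mainly in the nucleus, was lowest by size at -1.91 ± 0.73 but was not called (limma adjusted p = 0.0627), with 8.61, 6.62, 5.86, 4.79 and 9.09 on the miR-1225-3p arrays and 8.70 to 9.16 on the scrambled arrays. Its second kept probe read 0.86 (adjusted p = 0.0158 over kept probes), the opposite direction.

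Among the chaperones that assemble the core, replicate 5 lay with its group for each of the 3 genes that rose. This was not particular to them, since replicate 5 also lay above all scrambled arrays for PSMA1, PSMD1, PSMD4 and PSMD6. PSMG1 and PSMG2 form a pair that guides the alpha ring, and PSMG3 and PSMG4 form another. Of these 4, 3 rose, and the median log2 fold change was 0.56. PSMG1 read 12.75, 12.40, 12.43, 12.34 and 12.24 on the miR-1225-3p arrays and 11.57, 11.54, 11.91, 11.66 and 12.00 on the scrambled arrays. All miR-1225-3p arrays lay above all scrambled arrays, with a log2 fold change of 0.70 ± 0.15 (SE, n = 5 each, limma adjusted p = 0.0143).

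PSMG2 and PSMG4 are described in full because their groups did not overlap, a choice made after their values were seen. PSMG2 read 10.34, 10.11, 10.09, 9.73 and 10.06 against 9.36, 9.15, 9.62, 9.40 and 9.64 (log2 fold change 0.63 ± 0.15, limma adjusted p = 0.0178). PSMG4 read 10.43, 10.32, 10.58, 10.72 and 10.57 against 9.90, 10.05, 10.07, 10.17 and 9.98 (log2 fold change 0.49 ± 0.12, limma adjusted p = 0.0189). Replicate 5 lay in the middle of its group for both. PSMG3 was not called, at -0.51 ± 0.26 (limma adjusted p = 0.134). PSMG1, PSMG2 and PSMG4 were higher and called after scaling on the 75th percentile (1.22, 1.01 and 0.91) and in a fit without replicate 5 (0.75, 0.63 and 0.48).

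Among other genes of the pathway there were rises and falls too. Of 33 partner genes on the array (shuttle factors, deubiquitinases, ubiquitin genes, regulators of transcription and assembly), 30 were tested, 8 rose, 3 fell and the median log2 fold change was -0.08, and DDI1, DDI2 and NFE2L2 had no probe that was kept. That is 11 of 30 called, beside 35% of all genes (17% higher and 18.1% lower), a share near the background. After scaling on the 75th percentile 11 were higher and 3 lower, beside 41.1% of all genes called. The largest rise was in POMP, the maturation protein that brings core assembly to completion. POMP read 8.21, 8.39, 8.23, 8.37 and 8.01 on the miR-1225-3p arrays and 6.29, 6.72, 6.68, 6.76 and 6.80 on the scrambled arrays. Every miR-1225-3p array, replicate 5 included, stood more than 1 log2 unit above every scrambled array, and the log2 fold change was 1.59 ± 0.14 (3.01-fold, SE, n = 5 each, limma adjusted p = 0.00338). It was 1.71 after scaling on the 75th percentile, 1.66 without replicate 5 and 1.72 within slide 1.

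**Figure D4:**
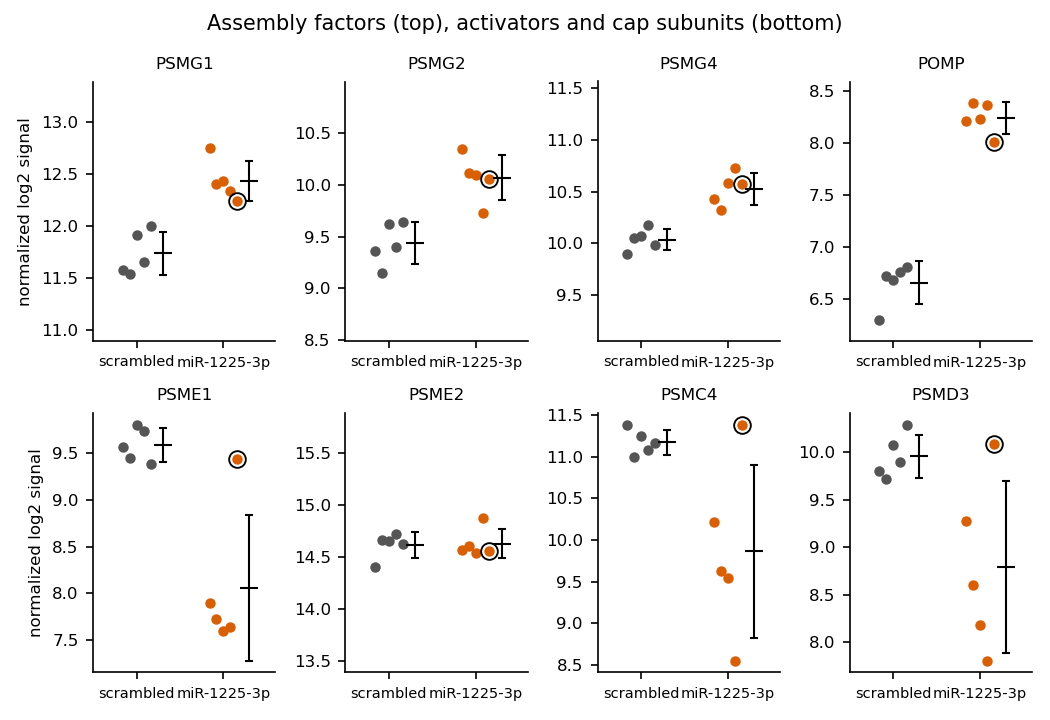
Normalized log2 signal on each array of core assembly factors (top: PSMG1, PSMG2, PSMG4 and POMP) and of activator and cap genes (bottom: PSME1, PSME2, PSMC4 and PSMD3), with the mean and SD beside the points and miR-1225-3p replicate 5 ringed. In the top panels replicate 5 lies with its group, and for PSME1, PSMC4 and PSMD3 it lies at the scrambled level while the other 4 miR-1225-3p arrays are lower.

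NFYB, a subunit of the factor that binds CCAAT, rose by 1.20 (limma adjusted p = 0.0150), with 7.94, 8.25, 8.17, 8.86 and 7.20 against 6.67 to 7.06. UBLCP1, a phosphatase of nuclear proteasomes, rose by 1.10 (adjusted p = 0.0136), with 9.40 to 10.29 against 8.71 to 9.14. The groups overlapped for neither gene, and replicate 5 was the lowest of its group for both.

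AKIRIN2, which brings proteasomes into the nucleus, had a log2 fold change of -1.26 (limma adjusted p = 0.0136), with 7.35, 7.25, 7.02, 7.43 and 7.97 against 8.83, 9.05, 8.73, 8.75 and 7.99. Its groups met but did not overlap, at replicate 5 of each. The shuttle factors RAD23B (-1.67, adjusted p = 0.0274) and UBQLN4 (-1.86, adjusted p = 0.0152), which carry ubiquitinated proteins to the proteasome, were lower too, RAD23B in 14 of the 26 alternatives and UBQLN4 in 23 of 25, and for both replicate 5 read within the scrambled range, at 8.05 and 7.49. NFE2L1, the factor that drives proteasome genes when proteasome function fails, was not called at -0.20 (limma adjusted p = 0.318).

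Core, cap and inducible subunits can be set side by side. In the core 3 of 14 tested genes rose and 1 fell (median log2 fold change 0.02). In the cap 5 of 17 rose and 3 fell (median 0.11). Of the inducible subunits 0 of 3 rose and 2 fell (median -0.54). Of all genes 17% were called higher and 18.1% lower, and with so few genes in each part these counts are not read as differing from that. After scaling on the 75th percentile the medians were 0.58, 0.60 and -0.33 beside 0.16 for all genes. The median of the inducible subunits thus lay below the all-gene median under both scalings, and those of core and cap above it. Single genes differed: after cyclic loess 10 of 14 core, 9 of 17 cap and 1 of 3 inducible genes lay above the all-gene median. The inducible gene above it was PSMB10, under both scalings. Its mean log2 signal on the scrambled arrays was 11.94, against 8.47 for PSMB8 and 9.04 for PSMB9. The part of signal strength in this comparison was not tested. These medians are descriptions and were not tested.

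Rises and falls also differed in signal strength, which depends on the probe as well as on the amount of transcript and is not read here as a level of the gene. The mean log2 signal had a median of 12.2 for the 11 genes that rose, 8.82 for the 9 that fell and 11.8 for the 26 that were neither. Spearman's rho between fold change and mean signal was 0.51 over the 46 proteasome genes and -0.0046 over all 17379 genes, and 0.61 and 0.27 after scaling on the 75th percentile. The points share arrays and normalization. The part of signal strength in the fold changes was not tested.

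**Figure D5:**
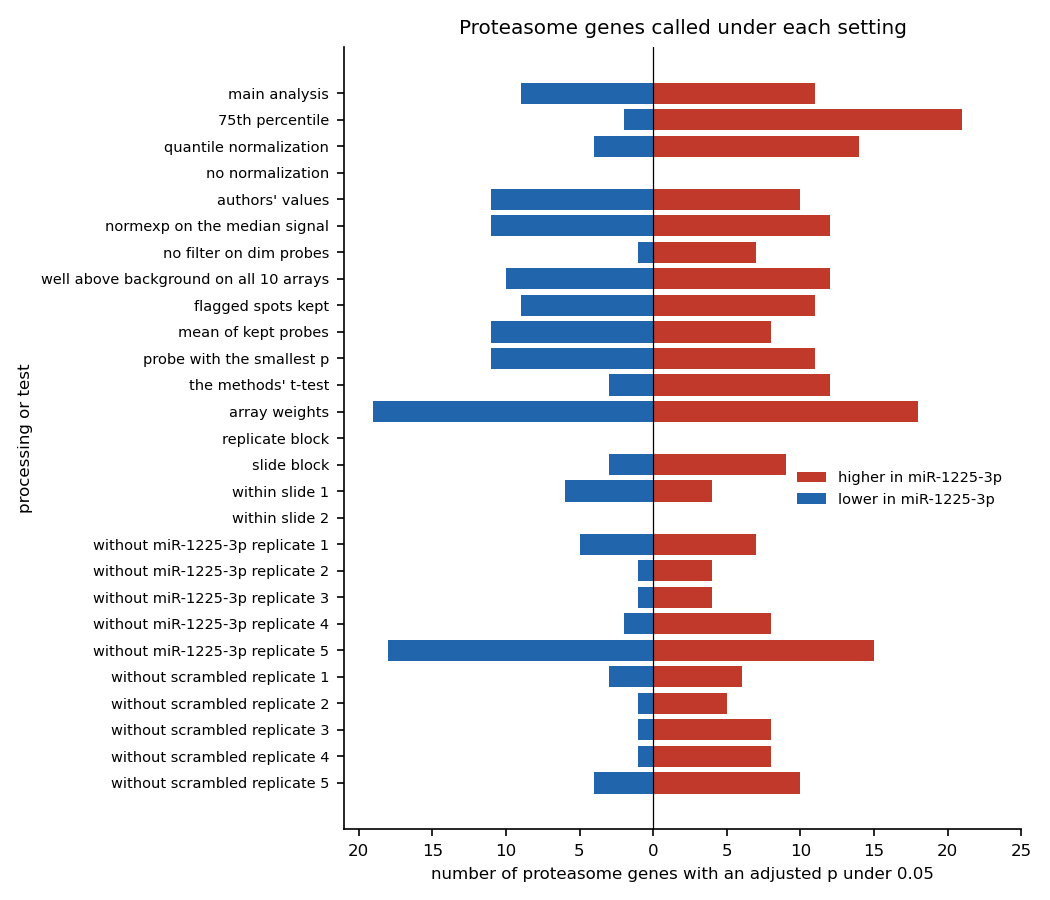
Number of proteasome genes with an adjusted p under 0.05 in each setting run, to the right those higher and to the left those lower in miR-1225-3p. The main analysis gave 11 and 9, scaling on the 75th percentile 21 and 2, leaving out miR-1225-3p replicate 5 gave 15 and 18, and no normalization, the replicate block and slide 2 alone gave 0.

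The arrays lay on 2 slides. With the slide as a block 9 proteasome genes were higher and 3 lower, with 30.4% of all genes called, 15% higher and 15.4% lower. PSMB8, PSMB9 and PSME1 were the 3 that stayed lower, and PSMG1, PSMG2 and PSMG4 were among those higher. Within slide 1, which held 2 miR-1225-3p and 3 scrambled arrays, 4 were higher and 6 lower (26.1% of all genes called, 12% higher and 14.1% lower), and PSMG1 had a log2 fold change of 0.76 there (limma adjusted p = 0.0589). Within slide 2, which holds replicate 5, limma called 0 of 46, and 2 had an unadjusted p under 0.05. Among all 17373 genes tested there it also called 0, and 1240 had an unadjusted p under 0.05.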

How the data were processed

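RNA of 5 miR-1225-3p and 5 scrambled MEG-01 samples was measured on single-colour Agilent arrays. The files the authors deposited are scanner output (Agilent Feature Extraction 10.7.3.1 per the labels) with a processed intensity per spot, from which background had been subtracted, and with quality flags. A table of normalized log2 values, also deposited by the authors, served as an alternative.

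Log2 processed signals of 58717 spots (4259 control spots left out) were brought together by cyclic loess in 3 iterations, outlier spots were set missing and spots averaged to 42405 probes, with limma 3.58.1 under R 4.3.3. A probe was kept if it was well above background on 3 or more arrays of one group (20648 probes), and the brightest kept probe stands for its gene. Accessions were named through RefSeq (GRCh38.p14), where 24910 probes matched. No spot was saturated. Groups were compared with lmFit and eBayes and Benjamini-Hochberg adjustment, which gave 6091 calls over 17379 genes, and ratios of subunit pairs with an exact permutation test. The labels call the samples biological replicates without naming separate cultures, so p-values measure the spread between these samples.

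The members and lists were chosen with earlier results of these data known. Per-array values are given for PSMB5 to PSMB11 and, in each role, for the largest rise and largest fall among called genes well above background on all 10 arrays. Genes not kept, and genes whose probes passed the threshold in opposite directions, are named. Partner genes (34 listed, 33 matched) are named where called with an absolute log2 fold change over 1. The 26 alternatives covered the normalization, source of values (normexp, offset 50, on the median signal in place of the mean), filter, flagged spots, probe, the methods' t-test, array weights, blocks and leaving out each array. The fit was also run on simulated data with independent noise for each gene. Those data lack the variation that genes share across the arrays here, so that run says nothing about its effect.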

Additional observations from a re-analysis of the deposited data

Results flagged for a closer look

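In 4 of the 34 groups of 5 arrays examined, 1 array lay far from the other 4, by a gap whose share of the group's range passed Dixon's critical value, where chance gives about 1 in 20, or 1.7. All 4 were miR-1225-3p replicate 5, which also lay among the scrambled arrays on the first principal component. The share was 0.884 for PSMB5 (replicate 5 at 12.83), 0.928 for PSMC6 (10.94), 0.836 for PSME1 (9.44) and 0.822 for the ratio of PSMB9 to PSMB6 (0.01 above the scrambled mean on the log2 scale). Replicate 5 was nearer to the scrambled arrays than the other 4 in each. Its value for PSMG1 (12.24), PSMG2 (10.06), PSMG4 (10.57) and POMP (8.01) lay above all scrambled arrays. The same held for other genes, among them PSMA1, PSMD1, PSMD4, PSMD6, NFYB and UBLCP1.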

How the results depend on the processing

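Main analysis called 20 proteasome genes and 11 partner genes. Without normalization the counts were 0 and 2 (7 proteasome genes at an unadjusted p under 0.05), with array weights 37 and 21, and without the filter on dim probes 8 proteasome genes. Of all genes 1266, 12041 and 3411 were called in these, against 6091. With the slide as a block there were 12 proteasome genes, within slide 1 10, and within slide 2 0 and 0, of 5278, 4528 and 0 of all genes. Leaving out each array gave 5 to 33 proteasome and 7 to 16 partner genes, of 2151 to 9564 of all genes.

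For PSMB8 to PSMB5 the difference was -0.080 with quantile normalization, -0.13 with the authors' values, -0.038 with normexp, -0.20 with the slide block, -0.22 within slide 1 and -0.18 within slide 2, none of them called, and -0.24 to -0.14 leaving out each array. For PSMB9 to PSMB6 it was -0.85, -0.88, -0.79, -1.02, -1.07 and -0.97, none called, and -1.19 to -0.83. Both were called on the 75th percentile and without normalization (-0.55 and -1.27 in each). For PSMB10 to PSMB7 it was -0.39 within slide 2, -0.19 within slide 1 and -0.36 to -0.18 leaving out each array, and -0.36 without miR-1225-3p replicate 4 was called (adjusted p = 0.0476, exact permutation test). Within a slide the smallest exact p is 0.1.

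Of 364 values of the 14 proteasome genes named by rule, 225 kept direction and side of the threshold, 133 lost and 4 gained a call, and 2 changed sign: PSMB5 on the 75th percentile (0.21) and PSMB6 in the authors' values (-0.015). PSME1 and PSMC6 were called in 23 of 26 alternatives, but PSMC4, PSMB9, PSMA2 and PSMD5 in 10, PSMD3 in 11 and PSMB5 in 9. POMP was called in 23, and the 3 exceptions were no normalization, the replicate block and slide 2.

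Same replicate numbers did not mark pairs: correlations of deviations were -0.22, -0.08, -0.40, 0.07 and -0.15 for replicates 1 to 5, and 0 of 5 replicates correlated best with their own number. With the replicate block limma called 0 proteasome and 0 partner genes (22 and 14 at an unadjusted p under 0.05) and 0 of all genes (7474 unadjusted), and the pair differences of -0.20 and -0.96 had an adjusted p = 0.125 (exact permutation within pairs, smallest p 0.0625).

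The number of arrays limits all values, and dim probes near background, such as those of PSME4 and the second probe of PSMA1, limit theirs most. The cause of these differences was not tested.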
